A study of Mus musculus with 6 samples.

Results

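The nuclear-encoded genes of the mitochondrial respiratory chain and ATP synthase were followed through 6 single olfactory sensory neurons (OSN), which detect odours in the nose. They were chosen by gene symbol alone: names beginning with Nduf (complex I), Sdha to Sdhd (complex II), names beginning with Uqcr (complex III), Cox4 to Cox8 (complex IV) and Atp5 (complex V), without names holding -ps. The rule took 97 of the 55341 genes in the count table. Of these, 84 are genes of chain subunits, 9 are assembly or coupling factors and 4 are annotated processed pseudogenes.

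All neurons were wild-type C57BL/6 cells from the olfactory epithelium of mice 6 weeks old. Each was frozen after a physiological recording and made into its own CEL-Seq2 library, a method that copies RNA from the poly(A) tail and so counts mostly the 3′ ends of transcripts. The labels put the cells, called cells 1 to 6 here, in a single group without naming the animals or the recorded responses. No comparison therefore has a replicate, no p-value is given, and intervals cover counting error only.

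Complexes I to IV of the inner mitochondrial membrane pass electrons from NADH and succinate to oxygen, and complexes I, III and IV pump protons as they do so. Complex V, the ATP synthase, lets the protons flow back and makes ATP. Most subunits are made in the cytosol from nuclear genes, while a small core of every complex except II is encoded by mitochondrial DNA. Neurons are known to spend much of their ATP on ion pumping, and the respiratory chain is a main source of it.

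Totals ran from 8613 counts in cell 1 and 11725 in cell 6 through 22525, 34478 and 60902 in cells 5, 2 and 4 to 122546 in cell 3. A single count was therefore worth 116 CPM (counts per 1000000 counts of the cell) in cell 1 and 8.16 CPM in cell 3. The 11 markers of olfactory neurons were all found and summed to 25233 to 41101 CPM. Markers of other cells were also present. Red blood cell markers (4 of 5 found) spanned 171 to 12610.4 CPM, with cell 6 lowest and cell 4 highest. Gland markers (8 of 9) spanned 85.3 to 32165 CPM, lowest in cell 6, and sustentacular cell markers (7 of 8) 116 to 1943 CPM, lowest in cell 1. Cell 2 was highest for both. Immune markers (3 of 8) reached at most 65.3 CPM, and the 6 basal cell markers had no count. The part of these other RNAs in any result on the chain was not tested.

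The nuclear-encoded chain took a similar share of the counts in 5 of the 6 neurons. The 97 genes together had 135, 565, 1842, 860, 363 and 136 counts in cells 1 to 6, or 15674, 16387, 15031, 14121, 16115 and 11599 CPM. The median was 15352.5 CPM, and the highest cell stood 1.41-fold above the lowest. Cell 6 was the lowest. Without it the highest-to-lowest ratio was 1.16. Scaling with TMM factors, an alternative way to set the library totals, widened the ratio over all 6 cells to 2.96, with cell 6 again lowest, at 7372 CPM, cell 1 next at 10470.4 CPM and cell 3 highest at 21812 CPM. Of the 97 genes, 91 had a count in at least 1 cell and 32 had one in every cell.

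In each of cells 1 to 6, 57, 81, 90, 77, 79 and 45 of the genes had a count. The range was narrower at equal depth. When each cell was thinned to 8613 counts, a mean of 57.0, 55.9, 57.2, 51.1, 58.1 and 39.6 genes was left. Cell 6 thus had fewer of the genes than the other cells at equal depth too. It also had the fewest genes of any kind, 2855 of all genes with a count, against 3058 in the shallower cell 1.

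Complexes V and I carried the most RNA, complex II the least. Complex I had a median of 4972 CPM, complex V of 4784 CPM, complex IV of 3525 CPM, complex III of 1328 CPM and complex II of 329 CPM. As a share of all counts of the 97 genes, the median was 32.0% for complex I with its 49 genes and 32.6% for complex V with its 17. Complex IV (19 genes) held 26.0%, complex III (8 genes) 8.34% and complex II (4 genes) 2.03%. These CPM values were not divided by transcript length because the method counts transcript ends. Divided by exonic length and rescaled to the same total, the order became I, IV, V, III and II, with 5628, 5081, 3228, 1418 and 213.

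**Figure D1:**
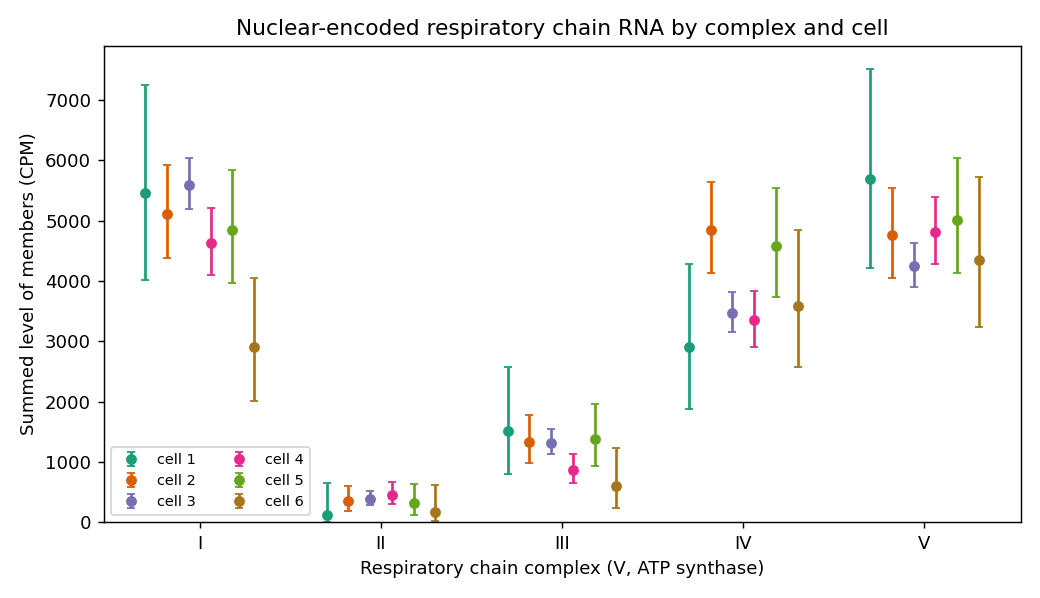
Summed level in CPM of the nuclear-encoded genes of each complex, 1 point per cell with its exact 95% Poisson interval. Complex I of cell 6, at 2899.8 CPM, lay below the other 5 cells, which spanned 4630.4 to 5598 CPM.

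With totals as they are, complex I stood apart in cell 6. Its genes summed to 2899.8 CPM there (34 counts), against 5457, 5105, 5598, 4630.4 and 4839 CPM in cells 1 to 5. With TMM scaling complex I was again lowest in cell 6, at 1843 CPM. Cell 1 was then also low, at 3645 CPM, and cells 2 to 5 spanned 4900 to 8123 CPM. Complex III was also lowest in cell 6, with 597 CPM from 7 counts, against 870.3 to 1509 CPM in the other cells. Complexes IV and V were not lowest in cell 6, although with TMM scaling complex V was. Complex IV had 3582 CPM in cell 6, inside its range of 2903 to 4844 CPM, and complex V had 4349.7 CPM, above the 4251 CPM of cell 3. With TMM scaling complex V had 2764 CPM in cell 6, against 3800.4 to 6169.5 CPM in the other cells. In cell 6 the red blood cell and gland markers were at their lowest, and the neuronal markers summed to 39574 CPM, against 25233 to 41101 CPM in the other cells. With TMM scaling their sum in cell 6 was 25149.9 CPM, the lowest of the 6, and the neuronal markers Cnga2 and Ano2 had no count there. Markers of immature neurons summed to 3582 CPM in cell 6 with totals as they are, against 1909 to 4893 CPM in the other cells.

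Complex V was the steadiest of the complexes, with a highest-to-lowest ratio of 1.34 over the 6 cells. The ratio was 1.67 for complex IV, 1.93 for complex I, 2.53 for complex III and 3.96 for complex II. With TMM scaling complex V was again the steadiest, at 2.23, with the others between 3.23 and 7.34. The counts behind these ratios differ: complex II had 98 counts in all and complex V had 1191.

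Complex I, the NADH dehydrogenase, was represented by 38 subunit genes, and each of them had a count in at least 1 cell. Ndufv3, an accessory subunit of the NADH-oxidising module, led with a median of 372 CPM. Its levels were 464, 754, 351, 394, 311 and 256 CPM in cells 1 to 6, so cell 2 was the highest. Ndufc2, a membrane-arm subunit, followed with a median of 327 CPM and a range of 171 to 444 CPM. Ndufa4 and Ndufa12 had medians of 259 and 209 CPM. Ndufa4 carries a complex I name, but its protein is now known as a subunit of complex IV. The core subunits of the NADH-oxidising module had medians of 125 CPM for Ndufv2, 124 CPM for Ndufs1 and 80.2 CPM for Ndufv1. The median over all 49 complex I genes was 78.3 CPM. Ndufv2 and Ndufs1 were named after their values were seen, as were Ndufaf4 and the pseudogenes below.

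The 8 complex I assembly factors, proteins that build the complex without staying in it, had 65 counts together. Ndufaf4 held 30 of them, and Ndufaf5 had a single count in cell 3. Ndufaf1 had 3 counts, all in cell 6 (256 CPM), and none in cell 3, where 1 count is worth 8.16 CPM. The 3 processed pseudogenes with complex I names, Ndufa11b, Ndufb4c and Ndufs6b, had 16, 14 and 5 counts.

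Complex II, succinate dehydrogenase, links the citric acid cycle to the chain and has only nuclear-encoded subunits. Sdhb, its iron-sulphur subunit, was found in all 6 cells at 116, 116, 228, 279, 178 and 171 CPM. Sdha, the flavoprotein that oxidises succinate, had 145, 106, 164 and 88.8 CPM in cells 2 to 5 and no count in cells 1 and 6, where 3 counts would be 348 and 256 CPM. The membrane anchors Sdhc and Sdhd had 6 counts each. For Sdha, Sdhc and Sdhd the shallow cells cannot separate a low level from none.

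Complex III, the cytochrome bc1 complex, had all 8 of its genes found. Uqcrh, the hinge protein, had 348, 319, 139, 197, 400 and 85.3 CPM in cells 1 to 6 (median 258 CPM). Uqcrq, a small subunit, had no count in the shallow cells 1 and 6 and 203, 302, 263 and 311 CPM in cells 2 to 5. The core proteins Uqcrc2 and Uqcrc1 had medians of 167 and 151 CPM. Uqcrc1 was even, between 116 and 188 CPM, while Uqcrc2 had no count in cell 1, 3 counts (49.3 CPM) in cell 4 and its highest level, 319 CPM, in cell 2. Uqcrb, a small subunit, had 11 counts in all.

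Complex IV, cytochrome c oxidase, passes the electrons to oxygen and held the gene with the highest median of the whole set. This was Cox8a, a small subunit, at 581 CPM, with 232, 754, 457, 706, 355 and 938 CPM in cells 1 to 6. Cox4i1, which is needed for assembly of the enzyme, followed with 581, 783, 636, 296, 444 and 426 CPM. Cox6c had a median of 487 CPM. Cox6a1, a regulatory subunit, had 581, 638, 351, 82.1, 622 and 85.3 CPM. It was low in cells 4 and 6, although cell 4 is the second deepest library and its 5 counts there compare with 43 in cell 3.

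**Figure D2:**
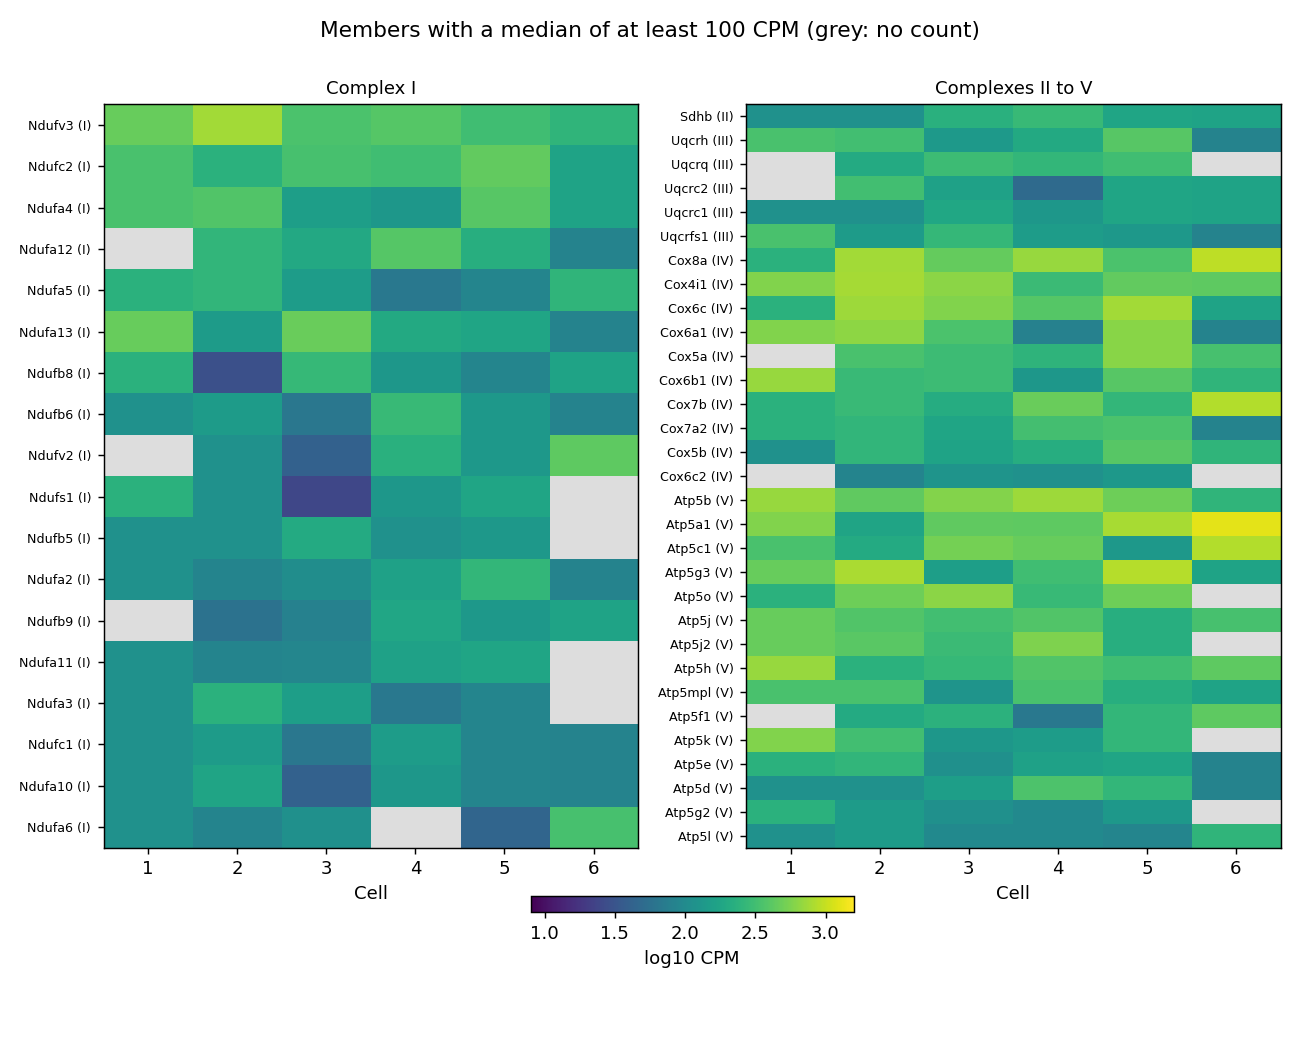
Level of each of the 49 genes with a median of at least 100 CPM, on a log10 CPM colour scale, by cell. Grey marks no count, which in cell 1 means less than about 348 CPM at 3 counts and in cell 3 less than 24.5 CPM. Cox8a, Cox4i1, Atp5b and Atp5a1 are filled in every cell, and the grey fields lie in the shallow cells 1 and 6 except for Ndufa6 in cell 4.

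Several complex IV subunits have a second gene known from other tissues, and the counts came from the widely expressed form. Cox4i1 had 143 of 143 counts of its pair, Cox6a1 90 of 90, Cox6b1 73 of 73, Cox7b 83 of 83 and Cox8a 146 of 146. Cox4i2, a form known from lung and from low oxygen, had no count. The same held for Cox6a2, known from heart and skeletal muscle, for Cox8b, known from muscle and brown fat, and for Cox6b2, Cox7b2 and Cox8c, known from testis. These were the only 6 of the 97 genes without a count. Pooled over the cells, a count of 0 allows a level of up to 11.5 CPM at 3 counts. The share of the alternative form is thereby limited to 2.10% for Cox4i2, 3.33% for Cox6a2, 4.11% for Cox6b2, 3.61% for Cox7b2 and 2.05% for Cox8b and for Cox8c, by the same 3 counts. Single shallow cells say little: cell 6 had 1 count of Cox6a1 and cell 1 had 2 of Cox8a.

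The Cox7a family was mixed. Cox7a2, the liver-type form, had 62 of 93 counts (66.7%, 95% Clopper-Pearson interval 56.1% to 76.1%). Cox7a2l, a related gene, had 29 counts (31.2%, 22.0% to 41.6%). Cox7a1, the heart and muscle form, had 2 counts, both in cell 3 (2.15%, 0.262% to 7.55%). In cell 2 Cox7a2l had 11 counts beside 9 of Cox7a2, and in cell 3 it had 7 beside 22.

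Ndufa4l2, a relative of Ndufa4 known as a target of the low-oxygen response, had 13 counts beside 54 of Ndufa4 (19.4%, 10.8% to 30.9%). The 13 counts lay in cell 3 (9), cell 4 (3) and cell 6 (1). In cell 2, which had 13 counts of Ndufa4, there was none.

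Complex V had the highest level for a typical gene. The median of its 17 gene medians was 283 CPM, against 78.3 CPM for the 49 of complex I. The catalytic head was led by Atp5b, the beta subunit, with 697, 435, 596, 722, 488 and 256 CPM in cells 1 to 6. Atp5a1, the alpha subunit, had 581, 174, 432, 427, 799 and 1279 CPM, lowest in cell 2 and highest in cell 6. It overlaps the antisense gene Haus1, and without a stated strand setting reads of the 2 cannot be told apart. Atp5c1, the gamma subunit that turns inside the head, had 348, 203, 522, 460, 133 and 853 CPM. Atp5j, a subunit of the stalk, was even, at 464, 377, 318, 378, 222 and 341 CPM. Atp5s, a coupling factor, had 3 counts in all.

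The proton-driven rotor ring is built of identical c subunits, encoded by 3 genes that give the same mature protein. Atp5g3 held 92 of their 131 counts (70.2%, 95% Clopper-Pearson interval 61.6% to 77.9%), Atp5g2 30 (22.9%) and Atp5g1 9 (6.87%). Pseudogene copies of Atp5g2 had 49 counts of their own and a copy of Atp5g1 had 6. These shares leave the copies out and depend on how reads with several matches were counted. Atp5g3 levels fell into a high pair, cells 2 and 5 with 812 and 888 CPM, and lower values of 464, 155, 312 and 171 CPM in cells 1, 3, 4 and 6. Atp5c1 had its lowest levels, 203 and 133 CPM, in the same cells 2 and 5. This pairing of 2 genes over 6 cells was chosen after the values were seen.

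The spread of the abundant genes over the cells was set against counting error. For each gene with a mean of at least 200 CPM, the coefficient of variation (CV) over the cells was divided by the CV that Poisson counting gives at these depths. If counts are reads and not molecules, every such ratio is inflated. Because the mean is taken over the same cells, a gene high in 1 cell can enter through that cell, with a high ratio. The gland marker Obp1a, for instance, had 10267 CPM in cell 2 and at most 232 CPM elsewhere. The part of such genes in the values for all genes was not tested. The 24 genes of the chain above that level had a median ratio of 1.48, against 1.77 for all 694 such genes in the table. A ratio of at least 2 was found in 2 of the 24 (8.33%), Atp5a1 at 2.19 and Atp5g3 at 2.08, and in 269 of the 694 (38.8%). The lowest ratio was 0.606, for Atp5j. With each cell left out in turn the median lay between 1.24 and 1.49 for the chain and between 1.62 and 2.04 for all genes. With TMM scaling the medians were 1.68 for 28 genes of the chain and 2.01 for 756 of all genes, and 8 of the 28 reached a ratio of 2 (28.6%), beside 50.5% of all. The difference between the medians was not tested, since cells of unknown animals are no replicates and genes are not independent.

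Each cell was then set against the mean of the other 5, for genes with at least 5 counts due in that cell at their mean level, and a 2-fold difference after adding 10 CPM was counted. Because the mean includes the cell itself, a low gene can enter through the cell where it is high, so the counts below describe these libraries and do not stand for all 97 genes. In cell 1 only Atp5a1 could be compared (log2 ratio -0.10), and it was neither higher nor lower, where 13.7% of all genes were higher and 18.3% lower. In cell 2, 3 of 36 genes were higher, beside 6.72% of all genes, and 3 were lower, beside 28.9%. In cell 3, 11 of 75 were higher and 9 lower, where 15.3% and 25.3% of all genes were.

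Cell 4 had 6 of 57 higher and 10 lower, with 15.9% and 25.1% of all genes. Cell 5 had 2 of 24 higher and 1 lower, with 10.9% and 20.2% of all genes. In cell 6, 1 of 6 was higher and 3 were lower, beside 23.6% and 24.5%. Summed over the cells, 23 of 199 values were higher and 26 lower, beside 14.3% and 25.3% of the values of all genes. The shares higher were near or below those of all genes. With TMM scaling the sums were 35 higher and 28 lower of 210, beside 23.0% and 17.6% of all genes.

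**Figure D3:**
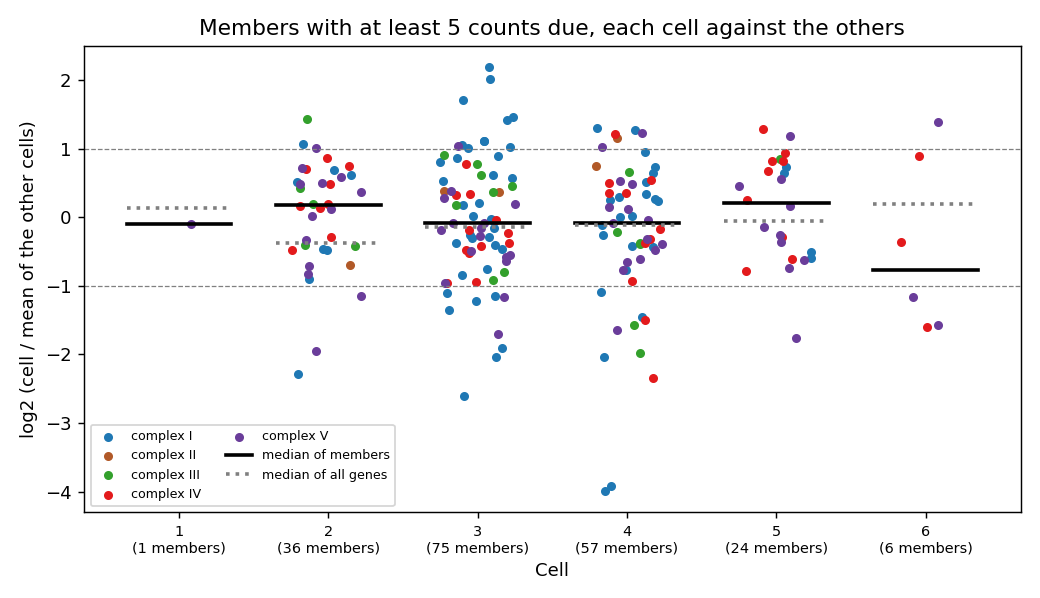
Log2 ratio of each gene in a cell to its mean in the other cells (10 CPM added), coloured by complex, for genes with at least 5 counts due. Black bars mark the median of the chain genes and dotted bars that of all genes. Dashed lines mark 2-fold. Most points lie between the dashed lines.

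With totals as they are, the median gene of the chain lay closest to that of all genes in cells 3 and 4. Medians of the log2 ratio for chain genes and for all genes were -0.10 and 0.14 in cell 1, 0.18 and -0.37 in cell 2, and -0.08 and -0.15 in cell 3. In cells 4, 5 and 6 they were -0.08 and -0.10, 0.21 and -0.05, and -0.76 and 0.20. The cell 1 and cell 6 medians rest on 1 and 6 genes. With TMM scaling the medians for chain genes and for all genes were -0.70 and -0.75 in cell 1, 0.51 and 0.06 in cell 2, 0.44 and 0.46 in cell 3, 0.10 and 0.26 in cell 4, 0.19 and -0.06 in cell 5, and -1.40 and -0.91 in cell 6.

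Counts by complex are read against the shares over the values of all genes, 14.3% higher and 25.3% lower. Of the 72 complex I values, 13 were higher and 13 lower. Of the 58 complex V values, 6 were higher and 8 lower. In complex IV 2 of 44 were higher and 3 lower, in complex III 1 of 20 higher and 2 lower, and in complex II 1 of 5 higher and 0 lower.

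In cell 2 the highest ratio was that of Uqcrc2 (log2 ratio 1.43), with 319 CPM there and at most 178 CPM elsewhere. The lowest was that of Ndufb8, a membrane-arm subunit of complex I, with 1 count in cell 2 (29.0 CPM), against 88.8 to 277 CPM in the other cells (-2.28). In both genes cell 2 lay outside the range of the other cells. Cell 2 had the highest gland marker sum, 32165 CPM, and its part in these 2 values was not tested.

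Cell 3 had complex I genes at both ends. Ndufs7, the core subunit that carries the last iron-sulphur cluster before ubiquinone, had 116, 29.0, 228, 65.7, 0 and 0 CPM in cells 1 to 6 (log2 ratio 2.19 for cell 3). The 228 CPM of cell 3 rest on 28 counts and lay above all other cells. Ndufaf1 was lowest (-2.61), an entry that rests on its 3 counts in cell 6.

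In cell 4 the highest was Ndufa12, an accessory subunit, at 394 CPM (24 counts), against 0 to 261 CPM elsewhere (1.31). The lowest was Ndufv1, with no count in cell 4, where 3 counts would be 49.3 CPM. Its other levels were 464, 116, 122, 44.4 and 0 CPM in cells 1, 2, 3, 5 and 6 (log2 ratio -3.99, a value that depends on the 10 CPM added). The entry of Ndufv1 in cell 4 also rests on the 464 CPM of cell 1, where a single count is worth 116 CPM.

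Cells 3 and 4, the 2 deepest libraries, were also set against each other directly for the 53 genes with at least 20 counts in them together. The highest ratio of cell 3 to cell 4 was that of Ndufb7, an intermembrane-space subunit of complex I named after its values were seen, with 30 counts against 1 (ratio 14.9, 95% interval 2.48 to 608). Cox6a1 followed with 43 against 5 (4.27, 1.70 to 13.8), then Atp5f1, the stalk subunit b, with 29 against 4 (3.60, 1.27 to 14.1). At the other end, Ndufb6, a membrane-arm subunit, had 8 counts in cell 3 and 17 in cell 4 (0.234, 0.0874 to 0.572). Atp5f1 and Ndufb6 were also named after their values were seen. Cell 4 had the highest red blood cell marker sum, 12610.4 CPM against 4080.1 CPM in cell 3. The immature neuron markers (6 of 7 found) were also at their highest there, with 4893 CPM, against 1909 CPM in cell 3, their lowest. The part of both in these ratios was not tested.

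In cell 5 the highest was Cox5a, a subunit of cytochrome c oxidase, at 622 CPM, against 0 to 348 CPM elsewhere (log2 ratio 1.29). Atp5c1 was lowest (-1.77) with 133 CPM, below the 203 to 853 CPM of the other cells. In cell 6 Atp5a1 was highest (1.39), with 15 counts or 1279 CPM, against 174 to 799 CPM elsewhere. Cox6c was lowest there (-1.60), with 171 CPM against 232 to 755 CPM.

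As a share of all counts, nuclear-encoded RNA of the chain varied less between cells than RNA encoded by mitochondrial DNA, an order that turned round with TMM scaling. The 97 nuclear genes spanned 11599 to 16387 CPM, a 1.41-fold range. The 13 mitochondrial subunit genes had 104958, 72481, 53090.3, 30179.6, 57625 and 108742 CPM in cells 1 to 6, a 3.60-fold range. With TMM scaling the ranges were 2.96-fold for the nuclear and 2.51-fold for the mitochondrial genes. The ratio of the 2 within a cell does not depend on scaling. Mitochondrially encoded over nuclear-encoded counts gave ratios of 6.70, 4.42, 3.53, 2.14, 3.58 and 9.38, with a median of 4.0. The highest, in cell 6, had an interval of 7.85 to 11.3, and the lowest, in cell 4, one of 1.97 to 2.32. The 2 shallowest libraries, cells 1 and 6, had the 2 highest ratios, and the part of depth in this was not tested. Cells 2 to 5 alone ranged from 2.14 to 4.42.

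**Figure D4:**
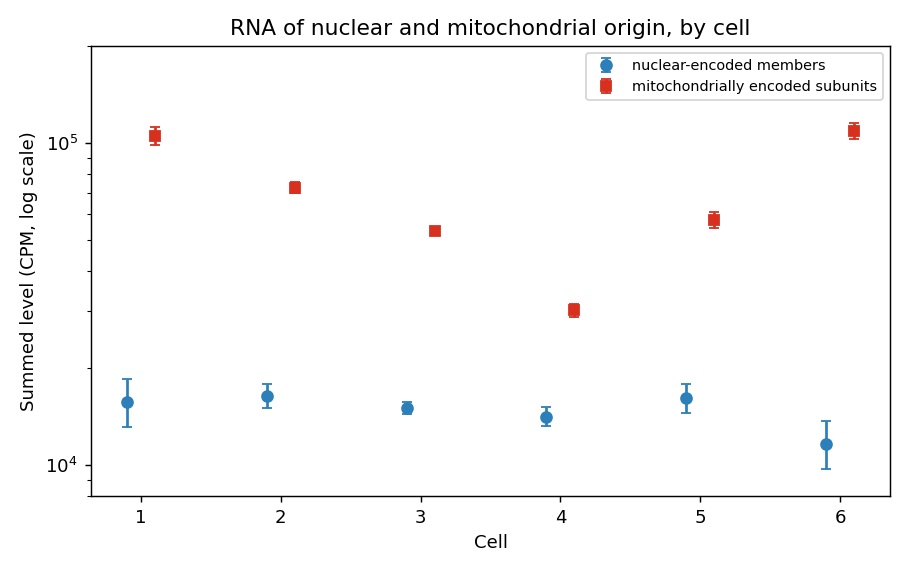
Summed CPM on a log axis of the 97 nuclear-encoded genes (circles) and the 13 mitochondrially encoded subunit genes (squares) in each cell, with exact 95% Poisson intervals. The circles stay between 11599 and 16387 CPM while the squares run from 30179.6 to 108742 CPM.

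By complex the same ratio, mitochondrially encoded over nuclear-encoded, had medians of 5.30 for complex I (7 mitochondrial genes), 6.90 for complex III (1 gene), 4.54 for complex IV (3 genes) and 1.80 for complex V (2 genes). In cell 6 the ratio was 17.0 for complex I (95% interval 12.0 to 24.8), against 2.95 to 6.98 in the other cells. For complex III it was 28.9 (13.8 to 72.7), against 3.94 to 10, from 7 nuclear counts. Without the nuclear copies described below, complex V was the only complex near parity in any cell, with 1.01 in cell 4 (0.860 to 1.20). The most abundant mitochondrial genes were mt-Nd4 of complex I and mt-Cytb of complex III, with medians of 11376 and 9329 CPM.

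Nuclear copies limit these values. Pseudogene copies that share sequence with the mitochondrial subunit genes had 9478 counts of their own, beside 14320 of the genes, so the mitochondrial sums are uncertain. With these copies added, the median ratio was 6.53 in place of 4.0. The copies fell unevenly over the complexes. Gm10925, a copy of mt-Atp6, had 1985 counts beside 1926 of that gene, while no copy of mt-Cytb was found. Ratios by complex were not computed with the copies added. Their order and the near parity of complex V therefore hold only for the genes without copies. For the nuclear-encoded genes, a pseudogene was called a copy when at least 10% of its 50-base windows occur in the gene, on either strand. Whole transcripts were searched, so the shared windows need not lie at the 3′ ends that are counted. By this measure 42 pseudogenes were copies of 25 of the 97 genes. They had 721 counts, beside 1112 of their parents. Of the 42, 4 are themselves among the 97 genes (Cox6c2, Ndufa11b, Ndufb4c and Ndufs6b), and their 63 counts are also in the sum of the chain. In 7 cases the parent gene had fewer counts than its copies: Atp5l 29 beside 155 in 9 copies, Cox7c 31 beside 73, Uqcrb 11 beside 21, Ndufab1 37 beside 57, Atp5g2 30 beside 49, Atp5h 83 beside 99 and Ndufb4 20 beside 22. Most of these genes were named after their values were seen.

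The likeness of gene and copy is shown for 1 gene by a stretch in which they are identical. Ndufab1, the mitochondrial acyl carrier protein and a complex I subunit, lies on the minus strand at chr7:122085403-122101886 (GRCm38). Its last 60 coding bases before the stop codon, from GENCODE M21 transcripts, are the same in the processed pseudogenes Gm4459 and Ndufab1-ps, which share 88.1% and 74.2% of their windows with it. Where the reads of the 3 rows fall was not tested. Another copy, Gm48789, had no count.

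Ndufab1: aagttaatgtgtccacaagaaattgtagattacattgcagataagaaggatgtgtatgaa
Gm4459: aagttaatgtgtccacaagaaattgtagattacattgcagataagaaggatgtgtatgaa
Ndufab1-ps: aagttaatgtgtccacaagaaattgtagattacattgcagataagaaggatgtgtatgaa

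Counts in cells 1 to 6 were 0, 2, 26, 6, 3 and 0 for Ndufab1, 0, 1, 20, 6, 3 and 0 for Gm4459 and 0, 1, 17, 6, 3 and 0 for Ndufab1-ps. The 3 rows were equal in cells 4 and 5. How reads with several matches were counted is not given in the sources used here, so a count of these rows cannot be assigned to the gene or the copy. With all copies added, the median sum of the chain was 17741 CPM in place of 15352.5 CPM.

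**Figure D5:**
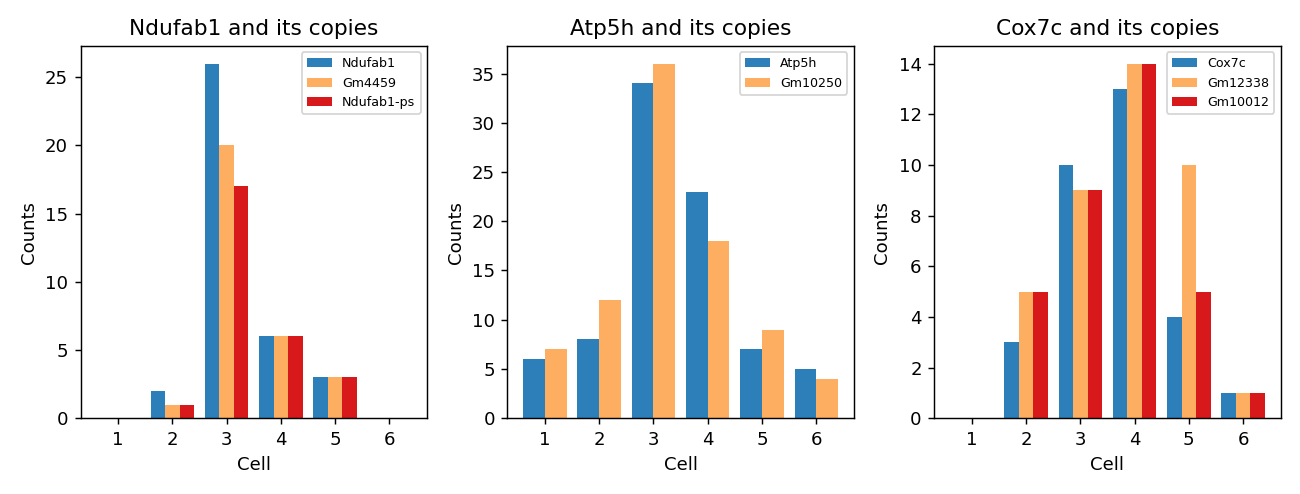
Counts of Ndufab1, Atp5h and Cox7c and of some of their pseudogene copies in cells 1 to 6. Only the copies named in the legends are drawn, and Ndufab1 and Gm4459 had 26 and 20 counts in cell 3.

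The promoters of the chain genes are known to be read by a small group of factors that includes NRF1, the ETS factor GABP and YY1. RefSeq windows (GRCm38.p6) of 300 bases, 250 before and 50 after the start, were matched to 76 of the 93 protein-coding genes of the set and searched on both strands. The NRF1 motif (GCGCA, any base, GCGC) was in 19 (25.0%), against 12.0% of 8523 protein-coding genes with a count and 5.19% of all 27025 genes with a window. The YY1 motif AAGATGGCG was in 8 (10.5%), against 3.70% and 1.64%. It contains ATG and can overlap a start codon. Of these 8 genes, only Atp5j held it whole in the 250 bases before the start. The GABP motif CCGGAAGT was in 5 (6.58%), against 9.18% and 4.31%, and a TATA box, TATAAA, in 7 (9.21%), against 9.56% and 15.7%. NRF1 motifs were in 9 of 40 complex I genes, 6 of 15 of complex V, 2 of 3 of complex II and 1 each of complexes III and IV. None of the NRF1, GABP and YY1 motifs was found in 46 of the 76. A match describes letters in the window and is not evidence of binding.

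For each of the 3 factors the most abundant genes with a whole motif before the start are shown, as the 250 bases before it, all on the minus strand and written 5′ to 3′ with motifs in capitals. Cox6a1 (chr5:115348959-115349208) holds 2 NRF1 motifs, Atp5c1 (chr2:10080433-10080682) 1, and Atp5h (chr11:115419920-115420169) 1 NRF1 motif and 1 GABP motif on the other strand. Uqcrh (chr4:116075071-116075320) holds a GABP motif, also on the other strand, and Atp5j (chr16:84834977-84835226) a YY1 motif.

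Cox6a1: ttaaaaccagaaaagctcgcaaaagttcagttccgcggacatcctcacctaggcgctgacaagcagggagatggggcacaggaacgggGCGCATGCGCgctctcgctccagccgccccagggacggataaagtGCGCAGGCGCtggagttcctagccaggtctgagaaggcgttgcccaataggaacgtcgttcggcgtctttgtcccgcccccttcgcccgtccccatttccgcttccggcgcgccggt
Atp5c1: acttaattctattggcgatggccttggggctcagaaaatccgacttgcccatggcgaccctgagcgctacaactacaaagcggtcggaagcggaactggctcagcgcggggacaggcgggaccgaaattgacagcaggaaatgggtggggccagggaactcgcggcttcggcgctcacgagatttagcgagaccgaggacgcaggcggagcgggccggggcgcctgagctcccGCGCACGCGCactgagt
Atp5h: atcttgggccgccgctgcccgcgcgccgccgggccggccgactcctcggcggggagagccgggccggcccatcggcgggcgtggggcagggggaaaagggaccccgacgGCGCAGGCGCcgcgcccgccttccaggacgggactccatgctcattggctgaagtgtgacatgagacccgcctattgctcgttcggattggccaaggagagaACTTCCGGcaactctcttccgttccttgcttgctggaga
Uqcrh: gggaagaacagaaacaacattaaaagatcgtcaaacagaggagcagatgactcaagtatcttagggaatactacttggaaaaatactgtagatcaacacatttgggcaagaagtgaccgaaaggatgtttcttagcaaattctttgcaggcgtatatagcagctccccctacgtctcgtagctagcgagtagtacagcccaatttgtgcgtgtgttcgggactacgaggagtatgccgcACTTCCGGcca
Atp5j: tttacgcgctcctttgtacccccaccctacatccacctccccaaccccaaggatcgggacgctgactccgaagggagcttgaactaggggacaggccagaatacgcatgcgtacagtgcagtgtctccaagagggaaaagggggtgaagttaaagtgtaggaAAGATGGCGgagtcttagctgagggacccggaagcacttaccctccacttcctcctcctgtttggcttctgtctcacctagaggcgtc

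These 5 genes did not share a pattern over the cells. Cox6a1 was low in cells 4 and 6, Atp5c1 was low in cells 2 and 5, and Atp5j was the most even of the 24 genes averaging 200 CPM or more. Of the factors, Nrf1 RNA had 116, 147, 788 and 311 CPM in cells 2 to 5 and no count in cells 1 and 6. Yy1 had 16 counts, and Gabpa, which lies head to head with Atp5j, had 1. Ppargc1a, a coactivator of mitochondrial genes, had a median of 123 CPM and was found in all cells.

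Genes that work beside the chain were grouped in lists, whose counts of values at least 2-fold higher or lower in a cell are read against 14.3% and 25.3% for all genes. The citric acid cycle list (15 of 16 found) had a median of 1660 CPM, led by Mdh2, malate dehydrogenase, at 255 CPM and Ogdh, of the oxoglutarate dehydrogenase complex, at 169 CPM. Of its 26 comparable values, 7 were higher and 4 lower. Its sum was 2644 CPM in cell 4 and 512 CPM in cell 6. Electron carriers and quinone synthesis (14 of 15) had 500.0 CPM, led by Cycs, cytochrome c, at 241 CPM and Coq7 at 44.9 CPM. None of its 6 comparable values was higher and 2 were lower. Assembly factors outside the set (31 of 37) had 870.4 CPM, led by Cox20 and Cox10, with 4 of 10 higher and 1 lower.

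The carriers that exchange ATP, ADP and phosphate across the membrane (7 of 10 found) had a median of 739.9 CPM. Slc25a5, an ATP and ADP carrier, was found in all cells at 263 to 533 CPM, and Slc25a3, the phosphate carrier, at 171 to 533 CPM. Of 9 comparable values 1 was higher and none lower. Membrane channels and uncoupling proteins (8 of 9) were led by Ucp2, at 286 CPM, and Vdac2, at 199 CPM, with 1 of 13 values higher and 1 lower. Inner membrane organisation (12 of 12) was led by Chchd10, a protein of the cristae, at 491 CPM, with Dnm1l, the fission enzyme, at 125 CPM. Here 3 of 13 values were higher and 2 lower.

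The import machinery (19 of 24) was led by Timm17a at 132 CPM and Tomm70a at 96.5 CPM, with 4 of 15 values higher and 2 lower. Regulators (14 of 17) gave 1 of 9 higher and 2 lower. Tfam, the mitochondrial transcription factor, named after its value was seen, had no count. Atpif1, which inhibits the ATP synthase when it runs backwards, had 188 CPM as a median, with 0 of 3 values past 2-fold. Of the mitochondrial subunit genes themselves, 6 of 68 values were higher and 15 lower, beside the same 14.3% and 25.3% of all genes. Cell 4 held 11 of the 15.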

How the data were processed

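RNA of 6 single neurons was measured by CEL-Seq2. The authors deposited raw counts per gene symbol, with 55341 genes and 1 column per cell. Per the labels, only the second read was aligned, and the barcode and molecular identifier were moved to the read names. CASAVA, HTSeq, Bowtie2 2.3.4 and the build mm10 are listed, per the submitters' processing notes, without roles or order. Not given in the sources used here are the strand setting, how reads with several matches were treated, and whether identifiers were collapsed. A count may thus be a read or a molecule, and intervals are too narrow if it is a read.

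CPM was computed over all genes of a cell, with exact 95% Poisson intervals for levels, exact 95% Clopper-Pearson intervals for shares and conditional binomial intervals for ratios of counts. A count of 0 was given the level of 3 counts as its limit. Each cell was compared with the mean of the other 5 after adding 10 CPM, for genes with at least 5 counts due. All 55341 symbols were found in GENCODE M21 (GRCm38), which gave positions, exonic lengths and shared 50-base windows. Of the 93 protein-coding genes among the 97, 32 overlap an antisense gene. Python 3.11.15, pandas 2.3.3, numpy 2.4.6 and scipy 1.17.1 were used, with edgeR 4.0.16 for TMM factors only.

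Genes were named by a rule: per complex the 4 with the highest median CPM and the lowest detected one, all members of the isoform families, the extremes of each cell, all genes without a count, and the top 2 of each further list. The genes of the set, the lists and the rule were chosen with earlier results of these data known. Genes outside the rule were picked with their values in view. Alternatives covered scaling, pseudocount, filters, thinning (mean of 20 draws), length, membership and each cell left out.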

Additional observations from a re-analysis of the deposited data

Results flagged for a closer look

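Dixon's limit for 6 values, on the gap between the extreme value and its neighbour, was applied to 60 values of the chain and its neighbouring lists, and 8 passed it. Chance flags about 1 in 20 groups of independent, normally distributed values. The values here are neither, so the number flagged cannot be read as an excess.

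With totals as they are, complex I was far below the other cells in cell 6, at 2899.8 CPM against 4630.4 to 5598 CPM. With TMM scaling cell 6 had 1843 CPM and cell 1 was next at 3645 CPM, values to which the limit was not applied. The mitochondrially encoded over nuclear-encoded ratio was far above the other cells in cell 6 for complex I, at 17.0 against 2.95 to 6.98. For complex III it was 28.9 against 3.94 to 10, with 7 nuclear counts. All 3 of these flagged values come from cell 6. Ndufv1 stood far above the others in cell 1, at 464 CPM (4 counts) against 0 to 122 CPM. The carrier list summed to 1199 CPM in cell 5, against 645 to 788 CPM in the other cells.

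Another 3 genes had counts in a single cell: Ndufaf1 in cell 6 at 256 CPM, Cox7a1 in cell 3 at 16.3 CPM and Ndufaf5 in cell 3 at 8.16 CPM. These are 3, 2 and 1 counts. A gene with counts in a single cell always passes the limit, whatever its number of counts.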

How the results depend on the processing

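Of 182 alternative values, 161 stayed within a limit set for each kind of result and 21 moved beyond it. The limit was the standard deviation over cells for levels, mitochondrial ratios and median log2 ratios. For counts, ranges and the spread it was a fixed fold, for shares the interval, and a rank had to be equal. These limits can be wide: a mitochondrial ratio of 6.53 in place of 4.0 still passed as unmoved. The summed level moved with the pseudogene copies added (17741 CPM). TMM scaling gave 4389.8 CPM for complex IV, 5519.6 CPM for complex V and a highest-to-lowest ratio of 2.96. Genes found in all 6 cells numbered 8 at a limit of 3 counts and 16.1 after thinning, so detection in every cell is limited by depth. The sum of higher values, 23, became 12 with a pseudocount of 50 CPM, 72 without the filter on low values, 14 with at least 10 counts due and 35 with TMM. The sum of lower values, 26, became 146 without the filter and 13 with at least 10 counts due. The median log2 ratio moved in cell 1 (-0.70 with TMM, 0.31 against the pooled counts of the other cells), cell 3 (0.44 with TMM) and cell 6 (-1.36 without the filter, -1.40 with TMM). The sign turned against pooled counts in cell 1, where it rests on 1 gene, and in cell 3 (0.02), and with TMM in cells 3 and 4 (0.10 in cell 4). As a median over cells, the share was 0% for Cox7a1 and 78% for Atp5g3. Leaving out any 1 cell kept the median sum between 15031 and 15674 CPM and the median ratio of mitochondrially encoded over nuclear-encoded counts between 3.58 and 4.42. The annotation names no nuclear copies of mitochondrial genes as such, so they were found by shared sequence, which was added after the data were seen, as were the added pseudogene copies, TMM scaling of the spread and of the mitochondrial sum, the marker lists taken from the totals, and cells 1 and 6 left out. The causes of these shifts were not tested. No paired analysis was possible because the cells form 1 group.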
